A study of Chlamydomonas reinhardtii with 42 samples.

Results

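The change between 15 and 60 min of high light (HL) was followed in 6 of the 42 RNA-seq libraries of the series, 3 from Chlamydomonas reinhardtii cultures after 60 min of HL and 3 after 15 min. The libraries were chosen by their labels alone, and the comparison runs over all 13886 genes that passed a filter on low counts, of 17741 in the table. The series as a whole has 14 conditions of 3 libraries each, which differ in medium, light and time. All 6 cultures were of CC-125, a wild-type laboratory strain of this unicellular green alga, and were grown in HSM, a mineral medium, with 0 mM acetate, so that photosynthesis was their source of carbon. HL was 300 µmol photons and low light (LL) 5 µmol photons. HL began at 240 min of the experiment, so that the labels give 300 min for the 60 min cultures and 255 min for the 15 min cultures. The 3 LL libraries of the same medium at 240 min serve as the level before HL, and 12 further libraries give the same step in time at a second exposure (from 1440 min) and with 20 mM acetate. Cells had been grown in acetate-containing TAP medium in dim light before the transfer to HSM, and the labels do not say whether the cultures of the second exposure had also been through the first. The study describes its libraries as biological replicates, 3 for each condition. The p-values and intervals rest on a spread between replicates that was estimated for each gene over all 14 conditions. They therefore do not measure the spread of the 6 compared libraries alone. In bulk RNA of a culture, fewer cells that express a gene and less of its RNA per cell cannot be told apart.

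Light that exceeds the capacity of carbon fixation is dissipated as heat by qE, a fast form of non-photochemical quenching. In Chlamydomonas qE depends on the antenna-like proteins LHCSR1 and LHCSR3 and is assisted by PSBS, which accumulates transiently after a shift to HL. The same shift draws down inorganic carbon, and the cells respond with the CO2-concentrating mechanism (CCM), in which transporters, carbonic anhydrases and the pyrenoid raise CO2 around Rubisco. Both programmes start within minutes, so that samples at 15 and 60 min show which of their transcripts persist and which decline.

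Depth was adequate in all 6 libraries but differed between the groups. The 60 min libraries held 19558462 to 23843183 counts and the 15 min libraries 24833894 to 26799908, without overlap. The 100 most abundant genes took 48.2% to 55.5% of the counts at 60 min and 53.5% to 63.3% at 15 min. The scaling factors (TMM, which aligns the bulk of the genes between libraries) were 1.19 to 1.49 at 60 min and 0.661 to 0.996 at 15 min. Replicate 1 of the 15 min group, with the lowest factor and the highest share, stood apart from the other 2. Depth and scaling thus moved with the groups, and their part in the results below was not tested beyond the alternative scalings given. The HL label was borne out by LHCSR1, which had 81.0 ± 9.04 CPM (counts scaled to a common library size) at 60 min and 347 ± 42.3 CPM at 15 min, against 1.959 ± 0.195 CPM in LL (SD, n = 3 each).

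Between 15 and 60 min, 9021 of the 13886 genes (65.0%) passed an adjusted p of 0.05 in the edgeR quasi-likelihood test (Benjamini-Hochberg adjusted over all genes). At 60 min 4761 genes (34.3%) were higher and 4260 (30.7%) were lower. The 3 libraries of each time did not overlap for 9297 genes (67.0%). A change of at least 2-fold was called for 4366 genes (31.4%), of which 2448 (17.6%) were higher and 1918 (13.8%) lower. A difference of at least 8-fold was seen in 114 higher and 119 lower genes. The middle of the distribution hardly moved, with a median log2 fold change of 0.05.

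The direction depended on how abundant a gene was. Of the 146 genes with a mean of at least 1000 CPM, 125 fell and 1 rose, and their median log2 fold change was -0.82, with 25% of them below -0.94 and 25% above -0.70. Of the 750 genes from 100 to 1000 CPM, 476 fell and 64 rose (median -0.59). Of the 7171 genes from 1 to 10 CPM, 1412 fell and 3278 rose (median 0.36). These levels were grouped after the plot of change against level had been seen. Scaling by library size alone shifted the whole distribution up by a median of 0.70. Then 7906 genes were higher and 1422 lower, so that the higher genes made up 84.8% of the calls in place of 52.8%. The most abundant genes had a median of -0.12 under that scaling. Without replicate 1 of the 15 min group 3767 genes were higher and 4469 lower. Direction is therefore read below against the bulk of the genes, and many falls of up to about 2-fold were not called when only library size was used.

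**Figure D1:**
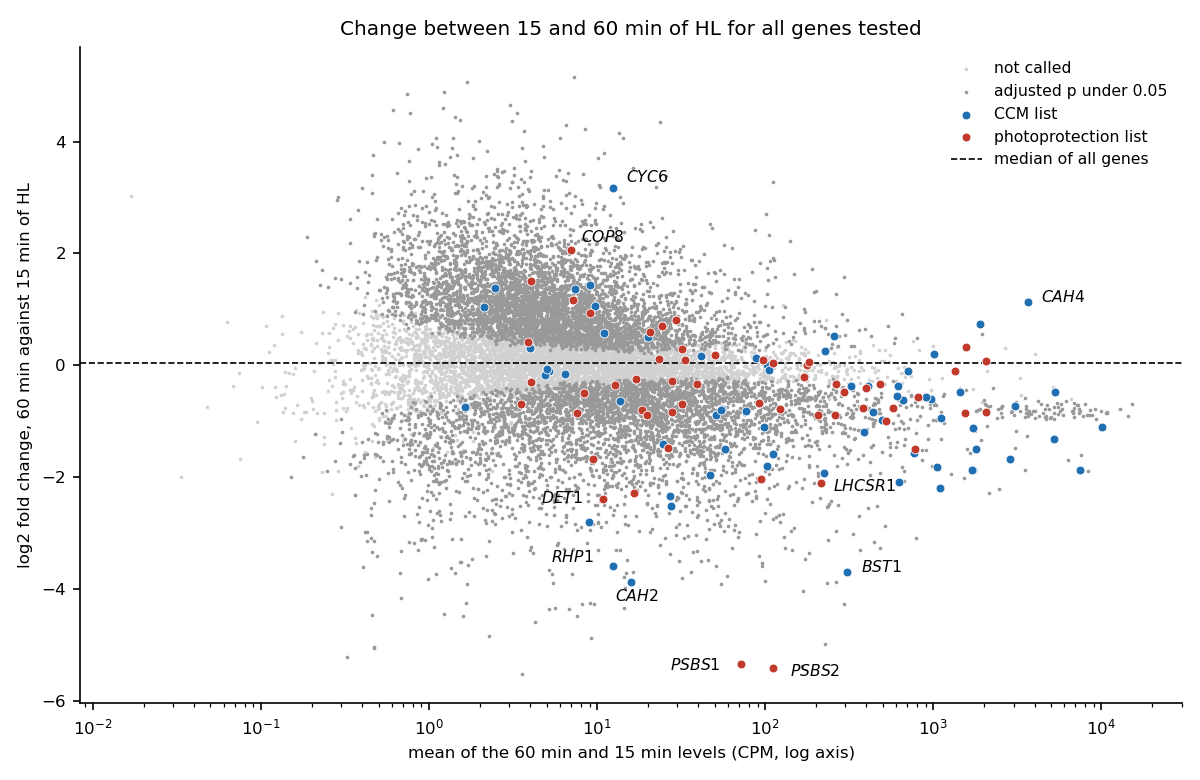
Log2 fold change of each tested gene at 60 min against 15 min of HL (vertical axis) over its mean level in CPM (horizontal axis, log scale). Dark grey points are genes with an adjusted p under 0.05, light grey points are not called, red and blue points are the photoprotection and CCM lists, and the dashed line is the median of all genes (0.05). Most genes above 1000 CPM lie in a narrow band below 0, and PSBS1, PSBS2, CAH2, BST1 and RHP1 are the lowest points of the lists.

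Of the 55 genes that the study lists for photoprotection, all were tested. At 60 min 7 were higher, 28 were lower and 20 did not pass, and the median log2 fold change was -0.41, against 0.05 over all genes. The share of lower genes was 50.9%, against 30.7% of all genes. The members were expressed more highly than most genes, with a median of 50.1 CPM against 7.32 CPM. With library size as the only scaling 17 were higher and 9 lower (median 0.25). Without replicate 1 of the 15 min group 6 were higher and 29 lower.

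The genes that carry out qE did not move together. PSBS1 and PSBS2, near-identical genes for the PSBS protein, fell more than any other listed gene, LHCSR1 fell about 4-fold, and neither LHCSR3 gene passed the test. With library size alone LHCSR3.1 was called higher (log2 0.99, adjusted p = 0.0204). PSBS1 had 3.82, 3.61 and 3.01 CPM in the 60 min libraries, against 161, 119 and 141 CPM in the 15 min libraries. It was 40.2-fold lower at 60 min, a log2 fold change of -5.33 (SE 0.36, adjusted p = 1.48e-14). PSBS2 had 4.67, 5.15 and 5.53 CPM at 60 min and 258, 172 and 223 CPM at 15 min, 42.5-fold lower (log2 -5.41, SE 0.43, adjusted p = 8.19e-13). In neither gene did the libraries of the groups come near each other, and yet both were still above LL at 60 min, where LL held 0.274 ± 0.144 CPM of PSBS1 and 0.353 ± 0.212 CPM of PSBS2 (SD, n = 3).

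LHCSR1, a stress-related member of the light-harvesting family, had 72.7, 90.6 and 79.6 CPM at 60 min and 364, 377 and 298 CPM at 15 min. The groups did not overlap, and the log2 fold change was -2.10 (SE 0.27, adjusted p = 2.81e-08). LHCSR3.1 and LHCSR3.2 encode the main qE protein and are near-identical copies, so that the division of reads between them is uncertain. LHCSR3.1 had 1629, 1870.0 and 1720.2 CPM at 60 min and 1369.8, 1286 and 1482 CPM at 15 min. Its libraries did not overlap, but the change did not pass the test (log2 0.33, 95% interval -0.43 to 1.102, adjusted p = 0.465). LHCSR3.2 had 1964 to 2256 CPM at 60 min and 1838 to 2077 CPM at 15 min, in overlapping ranges (log2 0.08, interval -0.67 to 0.83, adjusted p = 0.867). In LL the copies held 22.2 ± 14.9 CPM and 46.4 ± 31.8 CPM (SD, n = 3), far below either HL time. Replicate 1 of the LL group stood apart, at 4.97 and 9.66 CPM. The upper bound of the interval for LHCSR3.1 still allows a further rise of about 2-fold after 15 min.

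**Figure D2:**
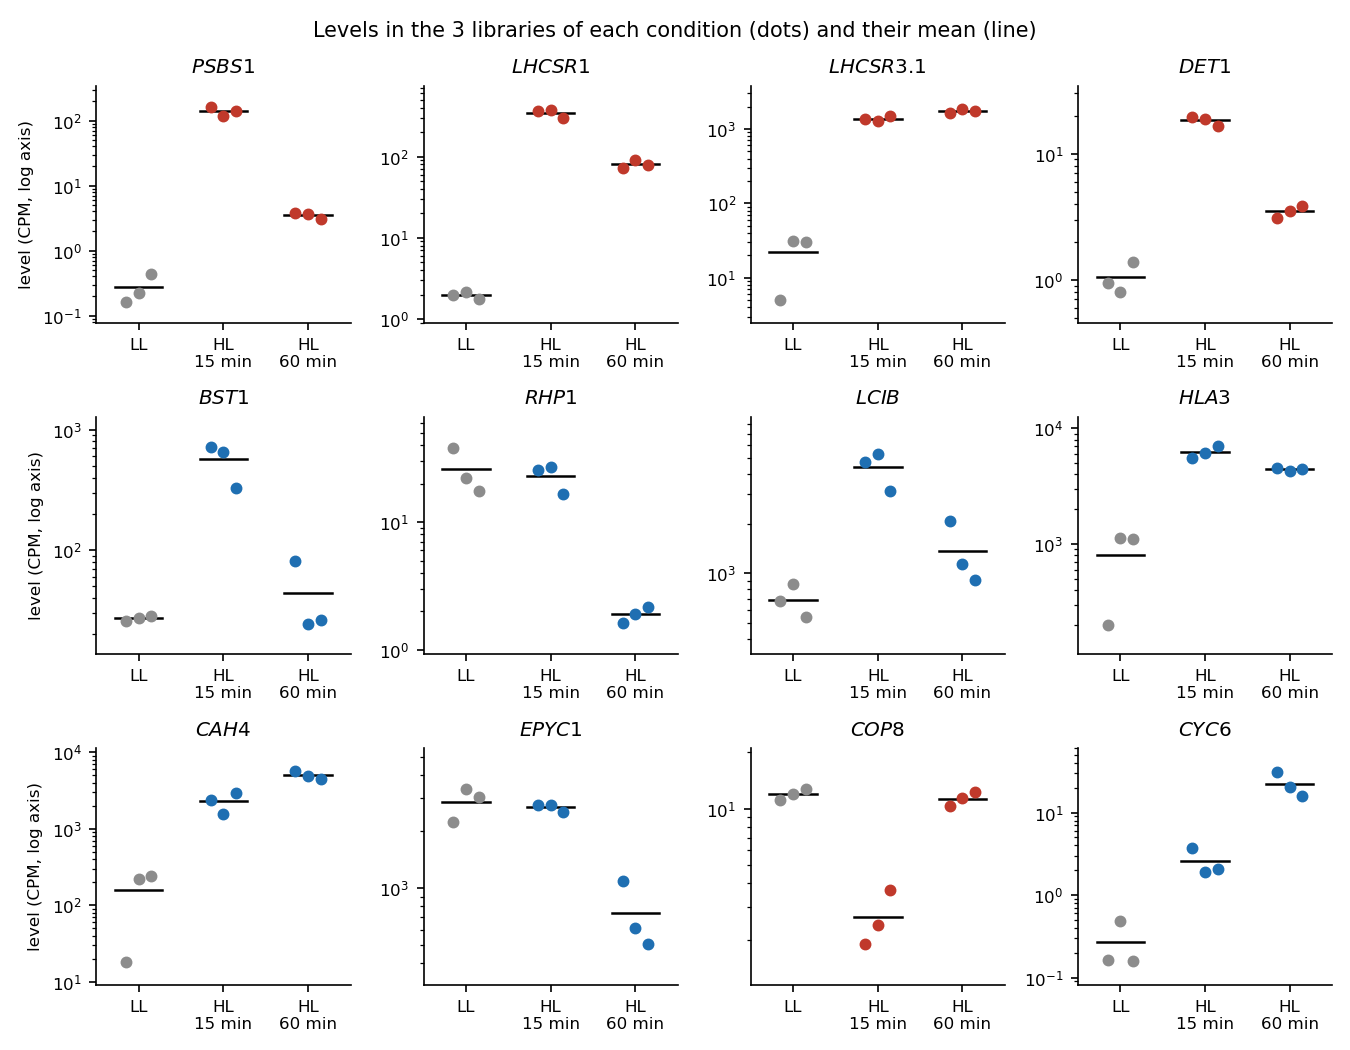
Levels in CPM (log axis) of 12 genes in LL at 240 min and after 15 and 60 min of HL in HSM, with a point for each of the 3 libraries and a line for the mean; red marks the photoprotection list, blue the CCM list and grey LL. PSBS1, LHCSR1, DET1 and BST1 peak at 15 min, RHP1 and EPYC1 leave their LL level only at 60 min, COP8 dips at 15 min and is back near LL at 60 min, and CYC6 is highest at 60 min.

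Among the 12 genes of the photosystem II antenna none rose, 6 fell and 6 did not pass. Over all genes 30.7% fell, but 8 of the 12 were above 100 CPM, and of all genes from 100 to 1000 CPM 63.5% fell. LHCBM proteins form the major light-harvesting trimers, and LHCB4, LHCB5 and LHCB7 the minor antenna. LHCBM2 had 417, 389.8 and 413 CPM at 60 min and 1163, 1153 and 1127 CPM at 15 min (log2 -1.50, SE 0.26, adjusted p = 6.10e-06). LHCBM4 had 34.2, 34.8 and 42.6 CPM at 60 min and 148, 164 and 142 CPM at 15 min (log2 -2.02, SE 0.31, adjusted p = 6.38e-07). These 2 genes lay well apart from their 15 min level in every library and fell below their LL level of 1030.2 ± 71.4 CPM (LHCBM2) and 97.8 ± 19.7 CPM (LHCBM4). They were also the only antenna genes still called when only library size was used. LHCBM6 had a log2 fold change of -0.995 (adjusted p = 0.00302), while LHCBM5 and LHCB5 had log2 values of 0.01 and 0.06. Without replicate 1 of the 60 min group 3 antenna genes were called in place of 6. Reads of the LHCBM genes are uncertain, since several are near-identical.

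Of the 5 early light-inducible proteins, which bind pigments during stress, 3 fell (60.0%, against 30.7% of all genes) and none rose. ELI1 was the most even of them, with 5.34, 5.86 and 5.65 CPM at 60 min and 27.99, 27.8 and 26.5 CPM at 15 min. It fell by 2.29 on the log2 scale (SE 0.14, adjusted p = 9.30e-16), to a level between those at 15 min and in LL (1.92 ± 0.0877 CPM). The xanthophyll cycle converts violaxanthin to zeaxanthin in excess light, and its 2 listed genes moved in opposite directions. VDR1, related to violaxanthin de-epoxidase, had 5.70, 5.45 and 6.88 CPM at 60 min and 2.07, 1.82 and 2.43 CPM at 15 min (log2 1.51, SE 0.16, adjusted p = 5.45e-10). This was a return, since LL held 7.32 ± 0.741 CPM. ZEP1, zeaxanthin epoxidase, had 341 ± 10.21 CPM at 60 min and 453 ± 6.27 CPM at 15 min (log2 -0.41, adjusted p = 0.00595), a fall whose direction turned when only library size was used.

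The genes of light signalling that act on qE did not move as a group. DET1, SPA1, CUL4 and DDB1 belong to a cullin-based ubiquitin ligase that represses light responses, and CrCO, a CONSTANS homologue, acts with the NF-Y factors to activate qE genes. Of the 10 listed genes of this pathway 5 fell (over all genes 30.7% fell), 1 rose and 4 did not pass. DET1 had 3.08, 3.53 and 3.83 CPM at 60 min and 19.5, 18.9 and 16.6 CPM at 15 min (log2 -2.39, SE 0.21, adjusted p = 4.51e-12). SPA1 had 12.6, 16.1 and 13.0 CPM at 60 min and 38.7, 34.8 and 42.9 CPM at 15 min (log2 -1.48, SE 0.15, adjusted p = 1.48e-10). Both remained above LL, at 1.04 ± 0.309 CPM for DET1 and 7.52 ± 0.328 CPM for SPA1. CUL4, the cullin scaffold, went the other way, with 22.01, 25.6 and 26.3 CPM at 60 min and 15.4, 15.97 and 17.7 CPM at 15 min (log2 0.59, SE 0.13, adjusted p = 0.000109). CrCO had 468, 412 and 397 CPM at 60 min and 700.0, 767 and 702 CPM at 15 min (log2 -0.76, adjusted p = 9.15e-08), which put it back at its LL mean of 425 ± 28.8 CPM. NF-YB and NF-YC had log2 fold changes of -0.69 and -0.90. The calls of CrCO, NF-YB and NF-YC were lost with library size as the only scaling, those of DET1, SPA1 and CUL4 were not.

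Of 14 photoreceptors 4 rose (28.6%, against 34.3% of all genes), 5 fell (35.7%, against 30.7%) and 5 did not pass, shares near those of all genes. COP8, a rhodopsin-like photoreceptor gene, rose most, with 10.37, 11.35 and 12.21 CPM at 60 min and 1.89, 2.399 and 3.68 CPM at 15 min (log2 2.06, SE 0.17, adjusted p = 1.21e-12). It thereby regained its LL level of 12.0 ± 0.795 CPM. CRY-DASH2, a cryptochrome, did the same on a smaller scale, at 12.0 ± 1.94 CPM at 60 min and 6.23 ± 0.527 CPM at 15 min, with 12.6 ± 1.34 CPM in LL (log2 0.94, adjusted p = 3.34e-06). COP6 also rose (log2 0.81, adjusted p = 8.48e-05), and the rise of COP4, a channelrhodopsin (log2 0.70, adjusted p = 0.00111), was not called without replicate 1 of the 15 min group (log2 0.42, adjusted p = 0.0653). PHOT1, the blue-light receptor on which LHCSR3 induction depends, had 135, 147 and 154 CPM at 60 min and 260.5, 290.5 and 256 CPM at 15 min. UVR8, the UV-B receptor, had 12.14 to 14.7 CPM at 60 min and 22.3 to 24.6 CPM at 15 min. The groups of both genes did not overlap (log2 -0.89 and -0.79, adjusted p = 5.39e-09 and 1.88e-07), but neither call held with library size as the only scaling.

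Genes of the response to singlet oxygen, which forms when chlorophyll is over-excited, did not move together. SAK1, a regulator of acclimation to it, had 4.60, 4.28 and 4.68 CPM at 60 min and 15.2, 14.6 and 13.31 CPM at 15 min (log2 -1.67, SE 0.13, adjusted p = 7.93e-13), close to the LL level of 4.32 ± 0.305 CPM. PSBP2 rose, with 10.5, 10.3 and 9.07 CPM at 60 min and 5.68, 3.72 and 4.00 CPM at 15 min (log2 1.17, adjusted p = 4.68e-06). This was a partial return, since LL held 19.3 ± 2.41 CPM, above both HL times. SOR1 (SINGLET OXYGEN RESISTANT 1), a transcription factor of the bZIP family, had 53.4 ± 7.07 CPM at 60 min and 46.9 ± 6.74 CPM at 15 min (SD, n = 3) and did not pass (adjusted p = 0.313).

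**Figure D3:**
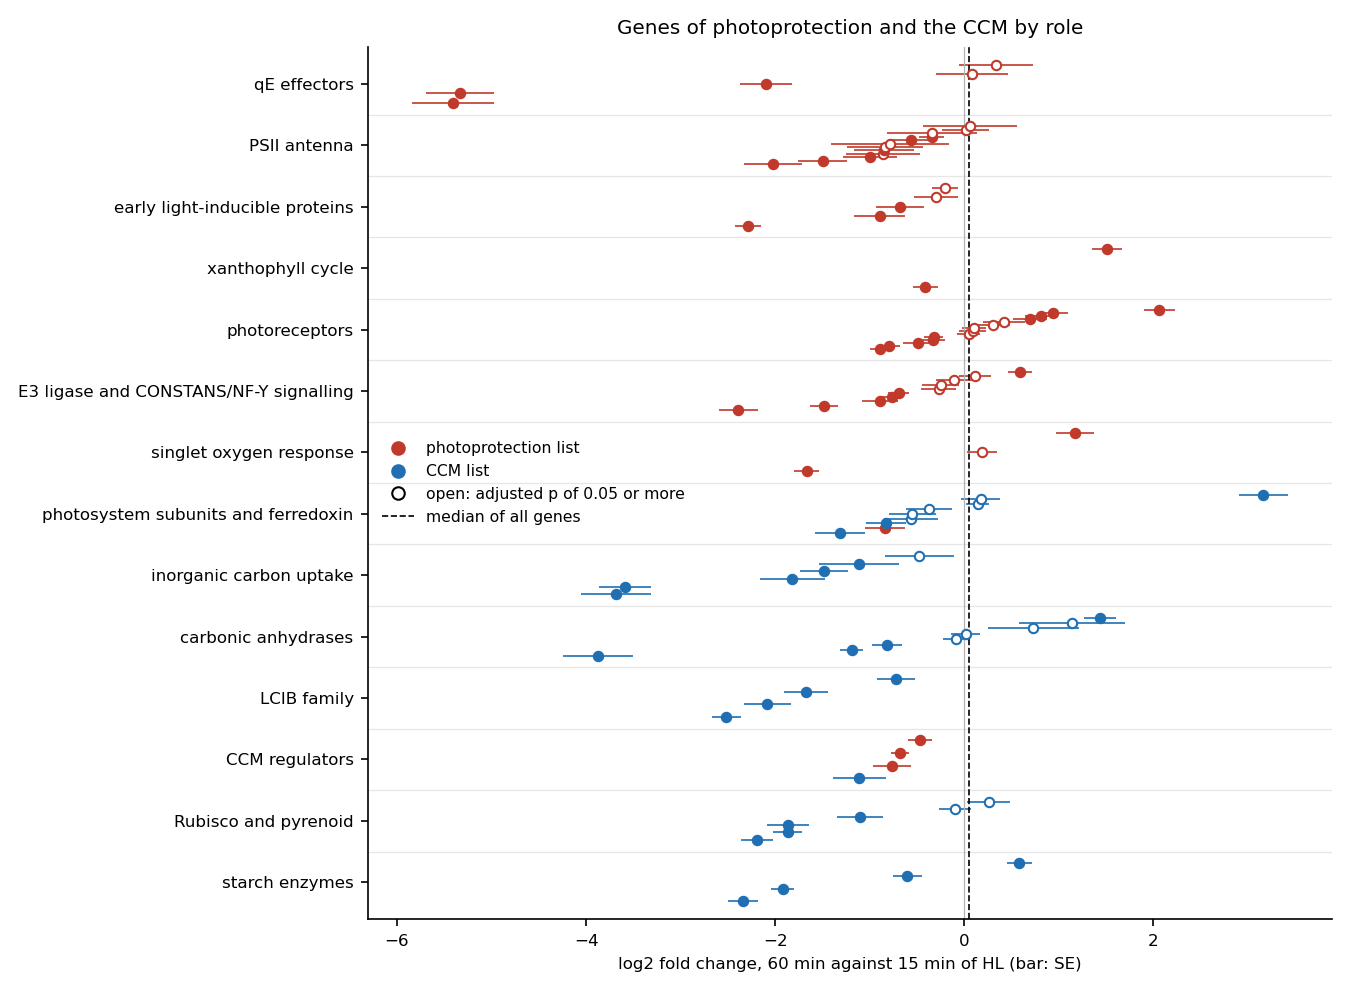
Log2 fold change at 60 min against 15 min of HL with its SE for every tested gene of 14 role lists, in red for the photoprotection list (also for genes on both lists) and in blue for the CCM list; filled points have an adjusted p under 0.05, and the dashed line is the median of all genes. All 4 genes of the LCIB family and all 4 CCM regulators lie below the median, and CYC6 (3.16) and COP8 (2.06) are the highest points.

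Of the 73 genes of the CCM list 71 were tested, of which 43 fell (60.6%, against 30.7% of all genes), 9 rose and 19 did not pass, with a median log2 fold change of -0.72. Its members had a median level of 224 CPM, and 40 of the 71 reached 100 CPM. Of all genes from 100 to 1000 CPM 63.5% fell, with a median of -0.59, so that the list was near the genes of that level. Of all genes from 10 to 100 CPM 42.8% fell, with a median of -0.18. With library size as the only scaling 24 fell and 21 rose (median -0.06), and without replicate 1 of the 15 min group 44 fell and 8 rose. The 2-fold falls numbered 26 and the 2-fold rises 6.

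Inorganic carbon enters through HLA3 and LCI1 at the plasma membrane, LCIA at the chloroplast envelope and bestrophin-like channels in the thylakoid. Of the 6 tested uptake genes 5 fell (83.3%, against 30.7% of all genes) and none rose. The 6 had a median level of 1382 CPM, and of all genes of at least 1000 CPM 85.6% fell. BST1 and RHP1 lay below that level. The median log2 fold change of the 6 was -1.65, against -0.82 for all genes of at least 1000 CPM. BST1, a bestrophin-like channel, had 81.7, 24.4 and 26.3 CPM at 60 min and 719, 656 and 327 CPM at 15 min, 12.9-fold lower (log2 -3.68, SE 0.37, adjusted p = 1.77e-10). Replicates 2 and 3 at 60 min lay at the LL level of 27.3 ± 1.104 CPM, and replicate 1 did not. RHP1, a Rhesus protein that conducts CO2 and is known from cells in high CO2, had 1.63, 1.92 and 2.17 CPM at 60 min and 25.3, 27.1 and 16.6 CPM at 15 min (log2 -3.59, SE 0.27, adjusted p = 2.69e-13). Unlike BST1 it was close to its LL level of 25.8 ± 10.6 CPM at 15 min and far below it at 60 min. RHP2, its neighbour in the family, was too low to be tested.

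LCI1 had 649, 374 and 362 CPM at 60 min and 1755, 1769 and 1361 CPM at 15 min (log2 -1.82, SE 0.34, adjusted p = 2.00e-05). CCP2, a carrier with a near-identical copy, had 1082, 931 and 805 CPM at 60 min and 2796, 2622 and 2475 CPM at 15 min (log2 -1.49, SE 0.25, adjusted p = 4.78e-06). LCIA had 1259, 1038 and 966 CPM at 60 min and 2278, 2329 and 2446 CPM at 15 min. All 3 genes were lower in every 60 min library and all stayed well above LL (87.2 ± 33.6 CPM of LCI1, 53.4 ± 29.4 CPM of CCP2 and 90.8 ± 65.4 CPM of LCIA). Replicate 1 of the LL group was the lowest for each of them, at 51.8, 19.8 and 15.4 CPM. For LCIA replicates 2 and 3 of that group had 125 and 132 CPM. The call of LCIA (log2 -1.11, adjusted p = 0.0215) was lost without replicate 2 or replicate 3 of the 60 min group (adjusted p = 0.0571 and 0.0672), with limma-voom (adjusted p = 0.0899) and with library size alone (log2 -0.48, adjusted p = 0.310). HLA3 kept most of its level, with 4574, 4300.4 and 4501 CPM at 60 min and 5529.6, 6073 and 7005 CPM at 15 min. Its groups did not overlap, but the change did not pass (log2 -0.48, 95% interval -1.19 to 0.24, adjusted p = 0.256). With the replicate block in a fit to the 6 libraries it was called lower (log2 -0.51, adjusted p = 0.00765).

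The carbonic anhydrases, which interconvert CO2 and bicarbonate, took different courses: 3 of 8 fell (37.5%, against 30.7% of all genes), 1 rose and 4 did not pass. CAH2, a periplasmic enzyme known from cells in high CO2, had 2.41, 1.99 and 1.73 CPM at 60 min and 39.5, 36.1 and 14.24 CPM at 15 min, 14.6-fold lower (log2 -3.87, SE 0.37, adjusted p = 4.50e-11). Like RHP1 it fell below LL, where it had 39.4, 13.8 and 13.7 CPM. CAH3, the enzyme of the thylakoid lumen, had 278, 232 and 198 CPM at 60 min and 582, 548 and 487 CPM at 15 min (log2 -1.19, SE 0.12, adjusted p = 1.86e-10), still above the 73.4 ± 4.36 CPM of LL. CAH7 rose, with 10.9, 14.5 and 14.0 CPM at 60 min and 4.85, 4.59 and 5.14 CPM at 15 min (log2 1.43, SE 0.17, adjusted p = 4.41e-09), back to about its LL level of 15.5 ± 2.10 CPM.

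CAH4 and CAH5, mitochondrial enzymes encoded by near-identical neighbouring genes, had positive values that did not pass. CAH4 had 5704, 4899 and 4506 CPM at 60 min and 2363, 1558 and 2937 CPM at 15 min. The groups were well apart, and the log2 fold change of 1.14 (SE 0.56) had an adjusted p of 0.071 in the fit over all 42 libraries. In a fit to the 6 libraries alone, or with library size as the only scaling, CAH4 and CAH5 were both called higher. CAH5 had 2378 ± 194 CPM at 60 min and 1433 ± 420.1 CPM at 15 min (log2 0.73, SE 0.48, adjusted p = 0.179).

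All 4 genes of the LCIB family fell, as did 30.7% of all genes. Their median level was 1750 CPM, and of all genes of at least 1000 CPM 85.6% fell. LCID and LCIE lay below that level. The median log2 fold change of the 4 was -1.88, against -0.82 for all genes of at least 1000 CPM. LCIB and LCIC form a complex around the pyrenoid that recaptures leaking CO2, and LCID and LCIE are related to LCIB. LCIB had 2066, 1137 and 914 CPM at 60 min and 4746, 5259 and 3146 CPM at 15 min (log2 -1.68, SE 0.23, adjusted p = 9.58e-08). LCID had 289, 238 and 185 CPM at 60 min and 1045, 1030.1 and 941 CPM at 15 min (log2 -2.08, SE 0.25, adjusted p = 4.73e-09). LCIE had 9.24, 7.403 and 7.88 CPM at 60 min and 54.3, 41.9 and 44.4 CPM at 15 min (log2 -2.52, SE 0.15, adjusted p = 1.18e-15). The partner LCIC fell least, to 2306 ± 481 CPM at 60 min, against 3809 ± 272 CPM at 15 min (log2 -0.72, adjusted p = 0.00184), and its call was lost with library size as the only scaling. No member had returned to LL, where LCIB held 693 ± 157 CPM, LCIC 615 ± 168 CPM, LCID 20.6 ± 8.89 CPM and LCIE 1.84 ± 0.294 CPM.

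The 4 listed regulators of the CCM all fell, as did 30.7% of all genes. Their median level was 195 CPM, but only 2 of the 4 reached 100 CPM. Of all genes from 100 to 1000 CPM 63.5% fell, and of those from 10 to 100 CPM 42.8%. LCR1, a MYB factor that acts downstream of CIA5, had 73.3, 52.3 and 60.1 CPM at 60 min and 133, 128 and 139.7 CPM at 15 min (log2 -1.11, SE 0.28, adjusted p = 0.000719). CIA5, the zinc-finger regulator on which CCM induction depends, had 66.8, 73.6 and 72.6 CPM at 60 min and 109.5, 121 and 110.0 CPM at 15 min (log2 -0.68, SE 0.10, adjusted p = 1.97e-07). CAS, a calcium sensor of the thylakoid, and STT7, the kinase of state transitions, had log2 fold changes of -0.76 and -0.47. With library size as the only scaling none of the 4 was called, and the value of STT7 turned positive.

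Of 6 genes for Rubisco and its pyrenoid partners 4 fell (66.7%, against 30.7% of all genes), to levels below those before HL. The 6 had a median level of 1401 CPM, and of all genes of at least 1000 CPM 85.6% fell. LCI9 and SMM7 lay below that level. The median log2 fold change of the 6 was -1.49, against -0.82 for all genes of at least 1000 CPM. RBCS1 and RBCS2 encode the small subunit and are close copies of each other. RBCS1 had 482, 336 and 360.4 CPM at 60 min and 2055, 1964 and 1364 CPM at 15 min (log2 -2.19, SE 0.17, adjusted p = 5.00e-13). RBCS2 had 7703, 6122 and 5310.1 CPM at 60 min and 16901, 13182 and 11076 CPM at 15 min (log2 -1.11, SE 0.24, adjusted p = 0.000166). RCA1, Rubisco activase, and EPYC1, the linker that packs Rubisco into the pyrenoid, behaved alike in size of change. RCA1 had 940.0, 649 and 618 CPM at 60 min and 2746, 2835 and 2481 CPM at 15 min (log2 -1.87, SE 0.16, adjusted p = 2.34e-12). EPYC1 had 1092, 613 and 502 CPM at 60 min and 2746, 2776 and 2523 CPM at 15 min (log2 -1.87, SE 0.22, adjusted p = 4.39e-09). Both were close to the LL level at 15 min (2793 ± 164 CPM of RCA1 and 2882 ± 587 CPM of EPYC1 in LL) and well below it at 60 min. LCI9 and SMM7, also on this list, did not pass (log2 -0.10 and 0.26).

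The starch sheath of the pyrenoid is built by branching enzymes and starch synthases, of which 3 listed genes fell and 1 rose. Over all genes 30.7% fell and 34.3% rose. The 4 had a median level of 125 CPM, and 2 of the 4 reached 100 CPM. Of all genes from 100 to 1000 CPM 63.5% fell, and of those from 10 to 100 CPM 42.8%. The median log2 fold change of the 4 was -1.26, against -0.59 for all genes from 100 to 1000 CPM. SBE3 had 82.9, 97.0 and 100.4 CPM at 60 min and 359, 383 and 320.0 CPM at 15 min (log2 -1.92, SE 0.12, adjusted p = 5.46e-15). SBE4 had 7.57, 8.53 and 10.8 CPM at 60 min and 44.6, 47.9 and 43.8 CPM at 15 min (log2 -2.34, SE 0.15, adjusted p = 7.57e-15). SBE1, another branching enzyme, rose, with 12.5 to 13.6 CPM at 60 min and 7.57 to 9.51 CPM at 15 min (log2 0.58, SE 0.14, adjusted p = 0.000356). STA2, granule-bound starch synthase, had a log2 fold change of -0.61 (adjusted p = 0.000877), whose sign turned with library size as the only scaling.

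Among photosystem subunits and electron carriers CYC6 stood alone. It encodes cytochrome c6, which replaces plastocyanin when copper is short. It had 31.0, 20.2 and 16.1 CPM at 60 min and 3.73, 1.90 and 2.06 CPM at 15 min, 8.96-fold higher (log2 3.16, SE 0.26, adjusted p = 1.76e-12), on top of a level of 0.270 ± 0.189 CPM in LL. FDX1, the main photosynthetic ferredoxin, fell, with 3362, 3006 and 2598 CPM at 60 min and 8893, 6635 and 6764 CPM at 15 min (log2 -1.31, SE 0.26, adjusted p = 5.05e-05). Of the 9 genes of this list 1 rose, 3 fell and 5 did not pass. Over all genes 34.3% rose and 30.7% fell, so that the share that fell was near that of all genes. The 9 had a median level of 607 CPM, and 6 of the 9 reached 100 CPM. Of all genes from 100 to 1000 CPM 63.5% fell. The median log2 fold change of the 9 was -0.55, against -0.59 for all genes from 100 to 1000 CPM.

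Transcription factors moved in both directions. Of 407 listed genes 371 were tested, of which 133 rose (35.8%, against 34.3% of all genes), 117 fell (31.5%, against 30.7%) and 121 did not pass, with a median log2 fold change of 0.06. Both shares were near those of all genes. Without replicate 1 of the 15 min group 105 rose and 131 fell, and with library size alone 206 rose and 40 fell. Only 18 of the 371 reached 100 CPM. The 8 that rose most had log2 fold changes of 2.402 to 3.63, and several of them were near 1 CPM or below at 15 min. Cre07.g353555, of the bHLH family, had 1.84, 2.14 and 2.39 CPM at 60 min and 0.178, 0.207 and 0.121 CPM at 15 min (log2 3.63, SE 0.42, adjusted p = 2.38e-09). Cre04.g226400, of the CCAAT-binding family, had 2.12, 3.16 and 2.79 CPM at 60 min and 0.0592, 0.207 and 0.445 CPM at 15 min (log2 3.37, adjusted p = 1.53e-09), and LL held 2.21 ± 0.375 CPM. Cre10.g460400 (C3H) and Cre01.g001600 (TRAF) had the same dip, with 6.05 ± 0.593 and 6.73 ± 0.988 CPM at 60 min, 0.839 ± 0.321 and 0.922 ± 0.156 CPM at 15 min, and 4.52 ± 0.219 and 6.73 ± 0.798 CPM in LL (SD, n = 3). Cre08.g364050, MYB-related, was also above LL at both times, with 70.9, 44.4 and 27.9 CPM at 60 min, 7.28, 4.84 and 14.8 CPM at 15 min and 3.71 ± 0.708 CPM in LL (log2 2.402, SE 0.30, adjusted p = 1.13e-08).

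The 8 that fell most had log2 fold changes of -2.68 to -2.21. The largest of these falls, of Cre07.g332250 (bHLH), rested on few reads. It had 3, 2 and 5 counts at 60 min and 20, 19 and 10 counts at 15 min. Cre02.g087600, of the SNF2 family of chromatin remodellers, had 22.04, 18.5 and 19.9 CPM at 60 min and 95.9, 101 and 90.0 CPM at 15 min (log2 -2.25, SE 0.14, adjusted p = 1.25e-15). Cre17.g696300, a C2H2 zinc-finger gene, had 10.96 to 12.31 CPM at 60 min and 80.8, 80.7 and 37.8 CPM at 15 min (log2 -2.49, SE 0.20, adjusted p = 9.47e-13). Cre06.g310500, of the bZIP family, had 1.52, 1.62 and 0.942 CPM at 60 min and 8.76, 7.98 and 8.98 CPM at 15 min (log2 -2.66, SE 0.34, adjusted p = 2.20e-08). These 3 genes were transient, with 12.0 ± 1.47, 8.29 ± 0.622 and 0.414 ± 0.136 CPM in LL. Cre12.g538550, of the GATA class, instead ended below LL, at 7.96 ± 2.73 CPM at 60 min, 38.5 ± 5.66 CPM at 15 min and 22.2 ± 5.31 CPM in LL (log2 -2.27, adjusted p = 2.41e-11).

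**Figure D4:**
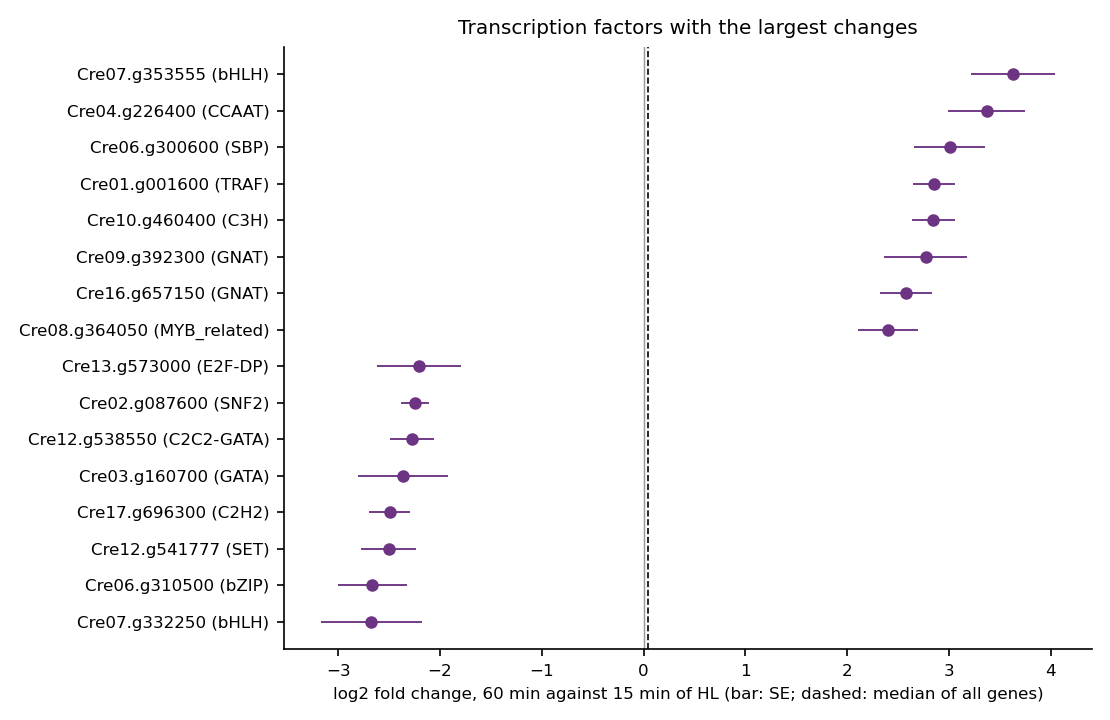
Log2 fold change at 60 min against 15 min of HL, with its SE, of transcription factors, the 8 strongest rises and the 8 strongest falls, each with its family; the dashed line is the median of all genes. The 8 rises run from 2.402 to 3.63 and the 8 falls from -2.68 to -2.21.

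The study predicted 28 regulators of qE and of light and carbon responses from a network built on data that include these libraries, so that their changes are not independent of that choice. Of the 25 tested, 8 rose (32.0%, against 34.3% of all genes), 10 fell (40.0%, against 30.7%) and 7 did not pass. GSP1, a homeodomain protein of plus gametes, had 2.90, 3.19 and 3.74 CPM at 60 min and 15.0, 14.9 and 13.0 CPM at 15 min (log2 -2.12, SE 0.27, adjusted p = 2.80e-08). LCI8, listed in the GNAT family, had 35.2, 29.2 and 29.4 CPM at 60 min and 61.9, 55.3 and 42.3 CPM at 15 min (log2 -0.76, adjusted p = 1.58e-06), a call lost with library size as the only scaling. CPL20 (PLATZ), QER4 (CPP) and QER6 (C2H2) rose 2.298-fold, 1.64-fold and 2.09-fold (adjusted p = 4.00e-06, 0.000134 and 0.000103). Each of these 3 was lower at 15 min than in LL, at 4.73 ± 0.477, 12.4 ± 1.74 and 1.16 ± 0.178 CPM at 15 min, against 10.5 ± 0.927, 22.7 ± 4.00 and 2.58 ± 0.251 CPM in LL. The study tested mutants of QER4 and QER6 and an LCI8 overexpressor, and saw no effect on qE transcripts after HL. It counts QER4 and QER6 as false positives, although the QER4 mutant had more LHCSR3.1 than the wild type in LL. LCI8 it takes as likely part of arginine synthesis and wrongly listed as a transcription factor. For LCR1 and QER7 the study reports that loss of the gene changed qE transcripts after HL, and it counts both as regulators of qE. In its QER1 mutant PSBS1 was higher, but restoring the gene did not reverse this.

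Outside the lists large changes fell on genes that the tables at hand do not name. Cre03.g183750 had 13.5, 13.23 and 15.8 CPM at 60 min and 0.237, 0.290 and 0.607 CPM at 15 min (log2 5.16, SE 0.44, adjusted p = 2.68e-12). Cre01.g005950 had 38.5, 44.8 and 51.3 CPM at 60 min and 1.42, 2.03 and 3.03 CPM at 15 min (log2 4.34, SE 0.32, adjusted p = 1.19e-13). Both were lower at 15 min than in LL, where they had 1.83 ± 0.588 and 9.06 ± 3.52 CPM. Cre06.g275100 fell about as far as the PSBS genes, with 7.78 ± 1.34 CPM at 60 min and 324 ± 113 CPM at 15 min (SD, n = 3 each), without overlap (log2 -5.38, SE 0.40, adjusted p = 1.24e-13), whereas LL held 297 ± 122 CPM, close to 15 min.

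At the second exposure, in other libraries of the same medium, the step between 15 and 60 min called 10040 of the 13886 genes (72.3%), 38.5% higher and 33.8% lower. Across genes, which are not independent replicates, the log2 fold changes of the exposures had a correlation of 0.91. The change itself differed between the exposures for 1064 genes (7.66%), of which 443 were more positive and 621 more negative at the first exposure. This split turned with the scaling, at 601 and 536 with RLE normalization and 29 and 987 with library size alone. A fit to the 12 libraries of the 4 conditions gave 423 such genes, and leaving out replicate 3 of the 15 min group gave 605. Of the 44 genes of the photoprotection and CCM lists with a called change of at least 2-fold, 6 (13.6%) differed between the exposures. LHCBM2 had log2 fold changes of -1.50 at the first and -2.98 at the second exposure, LHCBM4 -2.02 and -3.75, RBCS1 -2.19 and -2.95, and COP8 2.06 and 1.297 (adjusted p of the difference 0.00923, 0.00999, 0.0394 and 0.0429). None of these 4 differences was called with library size alone (adjusted p of 0.0949 to 0.551). That of RBCS1 was also lost without replicate 1 of the 60 min group or replicate 3 of the 15 min group (adjusted p = 0.1215 and 0.149), and that of COP8 without replicate 2 or 3 of the 60 min group or replicate 1 or 2 of the 15 min group (adjusted p of 0.0681 to 0.128). PSBS1 had a log2 fold change of -5.33 at the first exposure and -5.25 at the second, BST1 -3.68 and -3.83, RHP1 -3.59 and -4.07, LHCSR1 -2.10 and -2.21, and CYC6 3.16 and 2.98, and for none of these genes did the difference pass (adjusted p of 0.482 to 0.933).

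In the antenna list the exposures differed at 7 of 12 genes, against 7.66% of all genes. LHCB5 had 156, 197 and 204 CPM at 60 min and 169.6, 159 and 204 CPM at 15 min of the first exposure, against 131, 39.2 and 81.0 CPM at 60 min and 393, 77.6 and 870.0 CPM at 15 min of the second (difference of the log2 fold changes 2.48, SE 0.71, adjusted p = 0.0282). LHCBM3 had the same pattern (difference 2.12, SE 0.68, adjusted p = 0.0482). The 15 min libraries of LHCB5 thus lay far apart at the second exposure and close together at the first. The call of LHCB5 was lost without replicate 3 of either time (adjusted p = 0.05004 and 0.0502), and that of LHCBM3 without any of 5 of the 6 libraries (adjusted p of 0.0649 to 0.0903).

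With acetate, which the cells use as a carbon source beside photosynthesis, 8490 genes (61.1%) were called between 15 and 60 min, 29.9% higher and 31.3% lower, and the correlation with the step in HSM was 0.71 across genes. The change differed between HSM and acetate for 4373 genes (31.5%), 2438 more positive and 1935 more negative in HSM. With RLE normalization the split was 1841 and 2549, and with library size alone 3953 and 578. Of the CCM list 29 of 71 genes differed, and of the photoprotection list 15 of 55.

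LHCSR3 and several carbon uptake genes differed between the media. LHCSR3.1 had 1629, 1870.0 and 1720.2 CPM at 60 min and 1369.8, 1286 and 1482 CPM at 15 min in HSM, against 1147, 1163 and 1106 CPM at 60 min and 113, 173 and 108 CPM at 15 min with acetate. It rose by 3.12 on the log2 scale with acetate, and the difference, HSM minus acetate, was -2.78 (SE 0.56, adjusted p = 0.000281). HLA3 had 4574, 4300.4 and 4501 CPM at 60 min and 5529.6, 6073 and 7005 CPM at 15 min in HSM, against 2895, 3036 and 3139 CPM at 60 min and 185, 567 and 208 CPM at 15 min with acetate (difference -3.72, SE 0.53, adjusted p = 2.61e-06). For both genes the 60 min level differed between the media by less than 2-fold, and the 15 min level by far more. CAH4 and CAH5 also differed (differences -4.43 and -3.74, adjusted p = 8.80e-05 and 0.000101), with 2363, 1558 and 2937 CPM of CAH4 at 15 min in HSM, against 23.1, 86.5 and 33.4 CPM with acetate.

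PSBS1 fell in both media, but less with acetate, where it had 4.305, 4.29 and 3.46 CPM at 60 min and 23.1, 19.8 and 23.8 CPM at 15 min (difference -2.86, SE 0.45, adjusted p = 1.05e-05). LCIE, which fell in HSM, had 4.69, 4.44 and 4.94 CPM at 60 min and 2.95, 4.32 and 2.61 CPM at 15 min with acetate (difference -3.03, SE 0.22, adjusted p = 4.43e-12). CAH2 had 2.99, 3.62 and 3.60 CPM at 60 min and 4.91, 5.12 and 6.00 CPM at 15 min with acetate (difference -3.22, SE 0.50, adjusted p = 7.35e-06). CYC6 rose in both media and more with acetate (difference -2.62, SE 0.38, adjusted p = 3.05e-06), to 57.8, 52.0 and 52.5 CPM at 60 min, against 0.866, 1.29 and 0.785 CPM at 15 min. By contrast LCIB, with log2 fold changes of -1.68 in HSM and -1.90 with acetate, LHCSR1, with -2.10 and -1.68, and ELI1, with -2.29 and -1.93, showed no difference that passed (adjusted p = 0.625, 0.402 and 0.141).

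**Figure D5:**
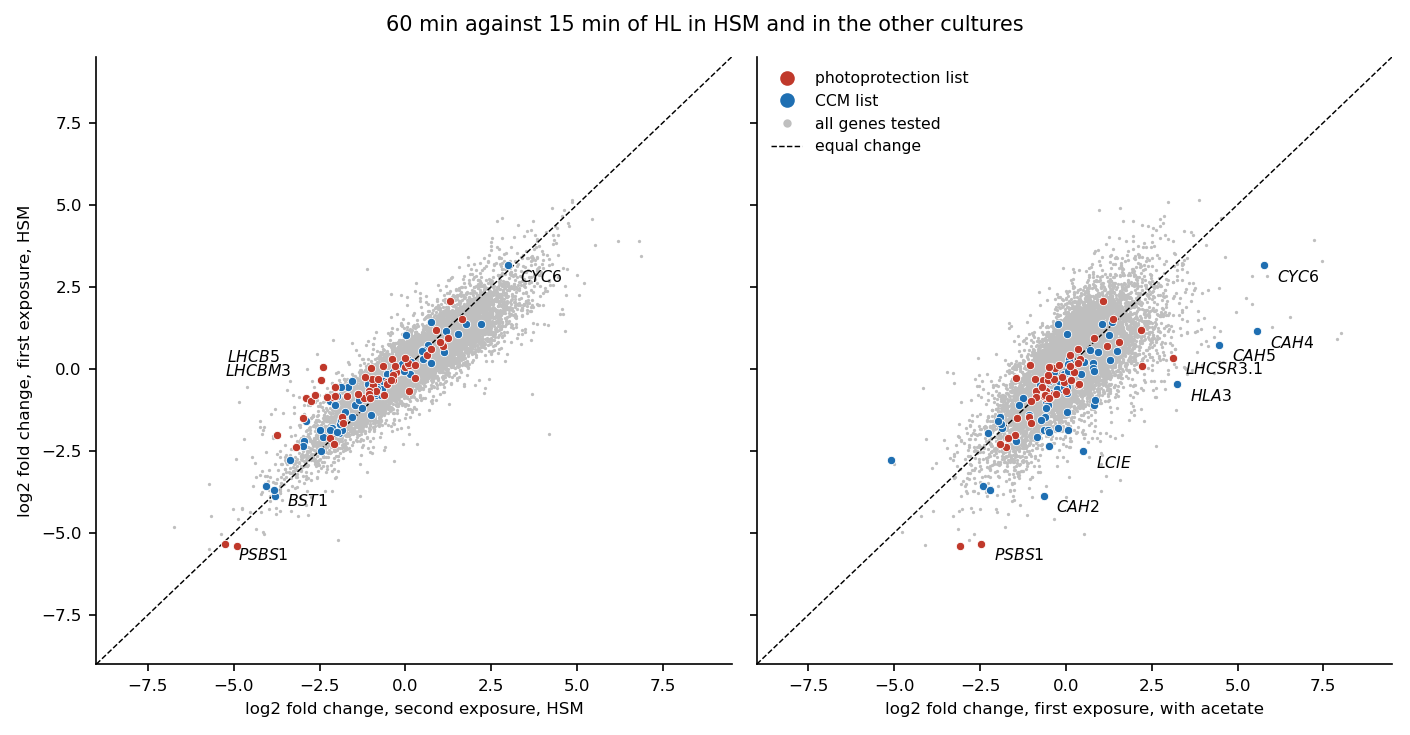
Log2 fold change at 60 min against 15 min of HL at the first exposure in HSM (vertical axes) against the same step at the second exposure in HSM (left) and with acetate (right), a point per tested gene, with the photoprotection list in red and the CCM list in blue; the dashed line marks equal change. Points lie closer to the line on the left (correlation 0.91) than on the right (0.71), where HLA3, CAH4, CAH5 and LHCSR3.1 lie below it.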

How the data were processed

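Stranded mRNA libraries were sequenced by the study. Per the labels and the study's methods, the authors trimmed reads with BBduk, aligned them to the Phytozome v5 assembly with STAR 2.5.3 and counted reads per gene with HTSeq-count on the reverse strand. The deposited table holds raw counts of 17741 genes in 42 libraries, of which 17305 had a count. The filter on low counts required 1 CPM or more in 9 or more libraries and left 13886 genes. A quasi-likelihood model with a term for each of the 14 conditions was fitted to all 42 libraries with edgeR 4.0.16 in R 4.3.3, with TMM scaling, and p-values were adjusted by Benjamini-Hochberg over all tested genes with a threshold of 0.05. Library totals and scaling factors are given with the results. CPM values are scaled by the TMM factors. Differences between exposures and between media were tested as interaction terms of the same model, and the conditions compared share no libraries there, whereas the LL values stand beside both HL times.

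Gene lists were the study's lists of photoprotection, CCM and transcription factor genes, divided by role. The members and lists were chosen with earlier results of these data known, and adjusted p-values over a list alone are not given. Named genes were those of each role list, the 8 transcription factors with the largest change in each direction and the strongest changes of any gene, limited to the first gene without a name in the tables in each direction, plus large differences from the other cultures. BST1 was taken as Cre16.g662600, whose profile matched the study's plotted one (correlation 0.999 over 42 libraries). RefSeq identifiers matched 17738 genes and gave no symbols. Deviations of same-numbered replicates from their group means had correlations of 0.247, 0.155 and 0.178 over 6014 genes. Of the unlike-numbered pairs, replicate 3 at 60 min with replicate 2 at 15 min reached 0.156, and the others were -0.318 to -0.054. Negative values are partly forced, since deviations from a group mean cancel. The bracketed numbers of the titles differ from the replicate numbers. By them replicate 2 at 60 min belongs with replicate 3 at 15 min, which had -0.062. Pairs thus stay unsettled and entered only the alternative fits with a block, not the main fit. Alternatives were RLE scaling, library size only, thinned counts, other filters, DESeq2 1.42.0, limma 3.58.1 with voom, fits to fewer libraries, replicate blocks and leaving out each library.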

Additional observations from a re-analysis of the deposited data

Results flagged for a closer look

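Several named genes changed by different amounts in the other cultures, by the interaction test of edgeR with Benjamini-Hochberg adjustment, and are given here as differences of log2 fold changes. Between the exposures, first minus second, these were LHCB5 (2.48), LHCBM3 (2.12), Cre14.g613800 (2.56) and Cre16.g661700 (-2.61). Smaller differences of the same kind were those of LHCBM4 (1.73), LHCBM2 (1.49), COP8 (0.77) and RBCS1 (0.76).

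Between the media, HSM minus acetate, the carbon genes were CAH4 (-4.43), CAH5 (-3.74), HLA3 (-3.72), CAH2 (-3.22), LCIE (-3.03), LCIA (-1.92), LCI1 (-1.59) and BST1 (-1.46). The call of BST1 was lost without replicate 2 or replicate 3 of the 60 min group (-1.17 and -1.19, adjusted p = 0.0707 and 0.0714). The qE genes were PSBS1 (-2.86), LHCSR3.1 (-2.78), PSBS2 (-2.32) and LHCSR3.2 (-2.13), and CYC6 differed by -2.62. Among the named transcription factors, those with a difference of at least 2 were Cre07.g353555 (bHLH, 2.70), Cre06.g300600 (SBP, 2.63) and Cre03.g160700 (GATA, -4.98). Of the genes without a name in the tables, Cre17.g700950 differed by 3.58 and Cre12.g555700 by -6.95.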

How the results depend on the processing

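The count of 9021 genes was 7332 to 9328 under the other settings and 8236 to 8833 with 1 library left out, in which higher genes numbered 3767 to 4590 and lower genes 3926 to 4661. The settings did not all test the same number of genes. The 7332 came from a stricter filter that left 11037 genes, the fits to 6 libraries tested 13212 and the fit without a filter 17305. With the replicate block the count was 9055 over all libraries and 8308 in the 6 libraries, and under the block over all libraries no named gene lost and 2 gained a call. In the 6 libraries alone the block lost 2 and gained 11 named calls, and the fit without it lost 3 and gained 8. With library size only, 7906 genes were higher and 1422 lower. Of 137 named genes, 88 kept their call or lack of a call under that scaling, and 20 lost and 17 gained a call. The other 12, each called under either scaling, turned in sign: LHCB4 0.13, LHCB7 0.32, ELI2 0.45, COP3 0.31, pCRY 0.33, CRY-DASH1 0.17, Cre01.g002500 (listed as COP1) 0.54, ZEP1 0.25, CAH9 0.58, STT7 0.16, LCI9 0.55 and STA2 0.0555 (log2). Genes called under neither scaling were not counted as turned. Some of the 88 did turn, such as HLA3 (-0.48 to 0.16) and LHCBM3 (-0.34 to 0.32). The difference between the exposures was called for 423 genes in a fit to 12 libraries and for 605 (without replicate 3 of the 15 min group) to 1236 genes with 1 library left out, against 1064. With 3 libraries a group and levels near 1 CPM, changes of rare transcripts are the least precise. The causes of these shifts were not tested.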
